A study of Homo sapiens with 7 samples.

Results

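The proteasome subunit genes are the genes whose symbols begin with PSMA, PSMB, PSMC, PSMD, PSME, PSMF or PSMG followed by a number, with pseudogenes left out. They were measured in the established human embryonic stem cell line HUES66, using PacBio long reads from polyadenylated RNA. Of 48 such symbols in the gene name table used, 47 were present among the 14294 genes listed, and they comprised 2337 isoforms; no isoform was listed for PSMB11, which encodes a thymus-specific subunit. A gene was compared when its mean level over the 7 libraries was at least 5 TPM (here reads scaled to the same total in every library, each read standing for 1 cDNA molecule, with no term for transcript length), which 42 of the 47 members and 7877 of all genes reached. PSMA8, PSMB9, PSMB10, PSMC1 and PSME4 did not, and their values are given apart.

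The series comprised 1 control library, labelled WT, and 6 libraries of RBFOX2 isoform knockdown, in which Cas13d, an RNA-guided RNA nuclease, was directed at isoforms of the splicing regulator RBFOX2. The knockdown libraries are called by the G numbers of their labels, where G3 stands for RBFOX2 id 178147, G5 for 178149, G11 for 178136, G12 for 178135, G13 for 178145 and G14 for 178146. Where 6 values follow each other without library names, they are in this order. All 7 cultures, the control included, had 1 µg/ml doxycycline and a 24 h time point, and all 7 labels carry the word piggyBac, a transposon system for inserting constructs into the genome. Each group had 1 library, and the labels state neither whether the control carried Cas13d nor which RBFOX2 isoform an id denotes.

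The proteasome is the protease that degrades ubiquitin-tagged proteins. Its 20S core is a barrel of alpha rings, which gate the entrance, and beta rings, which hold the catalytic sites; the 19S regulatory particle caps the barrel, binds and removes ubiquitin, and unfolds the substrate with a ring of ATPases. Other caps are the activators encoded by the PSME genes, and the PSMG genes encode chaperones that assemble the core. Embryonic stem cells are known for high proteasome activity.

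The libraries held between 16801842 (control) and 26678538 (G12) reads. RBFOX2 TPM was 39.2% of the control in G3, 52.2% in G13, and between 77.3% and 98.6% in the others. The summed level of 10 embryonic stem cell markers was between 1696 and 2147 TPM in all 7 libraries, but its genes went different ways. POU5F1 had 915 TPM in the control and between 377 and 588 in the G libraries, NANOG 10.0 and between 3.49 and 5.54, and L1TD1 18.2 and between 24.9 and 41.0; the part of these differences in the values below was not tested. Endoderm, mesoderm and immune lists summed to at most 0.238 TPM, with SOX17, GATA6, AFP, MESP1, MIXL1, PTPRC and CD3E not in the table used here. Of 5 ectoderm and neural markers PAX6 and SOX1 were likewise not in it, while OTX2 and TUBB3, which stem cells can also express, brought the sum to between 144 and 228 TPM. The fibroblast list, in which only COL1A1 and COL1A2 were present, summed to 27.7 TPM in the control and from 4.21 in G13 to 38.5 in G3, and its part in the values below was not tested. Every group being a single library, no difference has a replicate check and no p-value is given. The 95% intervals cover counting error only, all 6 comparisons share the 1 control, and in bulk RNA fewer cells of a type and less RNA per cell cannot be told apart.

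Most genes of the 20S core were lower than in the control, while several genes of the 19S particle were higher. Of the 14 constitutive core genes (PSMA1 to PSMA7 and PSMB1 to PSMB7), 14 were lower than the control in each of G3, G5, G11 and G14, 12 in G12 and 11 in G13. The share of all genes compared that was lower than the control was 36.9%, 38.5%, 52.9%, 62.4%, 64.3% and 54.8%. The median log2 ratio of the 14 core genes to the control, computed on log2(TPM + 0.5), was -1.25 in G14, -1.21 in G5, -1.09 in G3, -0.94 in G11, -0.40 in G12 and -0.35 in G13. Over all genes compared the same median was 0.12, 0.14, -0.04, -0.16, -0.21 and -0.10 from G3 to G14.

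Among the 14 non-ATPase 19S genes (PSMD1 to PSMD14), 9, 10, 9, 10, 10 and 9 were above the control from G3 to G14, where 63.1%, 61.5%, 47.1%, 37.6%, 35.7% and 45.2% of all genes were. Their median log2 ratio was 0.03, 0.17, 0.31, 0.23, 0.37 and 0.30. This list follows gene symbols and so includes PSMD5, PSMD9 and PSMD10, which encode chaperones of base assembly. In G3 the count was near the share of all genes and the median below that of all genes, and in G5 the medians of the list and of all genes were 0.17 and 0.14. The 5 base ATPase genes compared lay between the other groups, with medians from -0.47 in G14 to 0.08 in G13. The 3 activator genes and the 4 assembly chaperone genes had medians from -1.27 to -0.22 and from -1.20 to -0.40 respectively. The member genes as a whole held 2.10% of all reads in the control and 1.57%, 1.60%, 1.79%, 2.10%, 2.19% and 1.68% in the G libraries, so the total share was near the control in G12 and G13 and below it in the other 4.

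**Figure D1:**
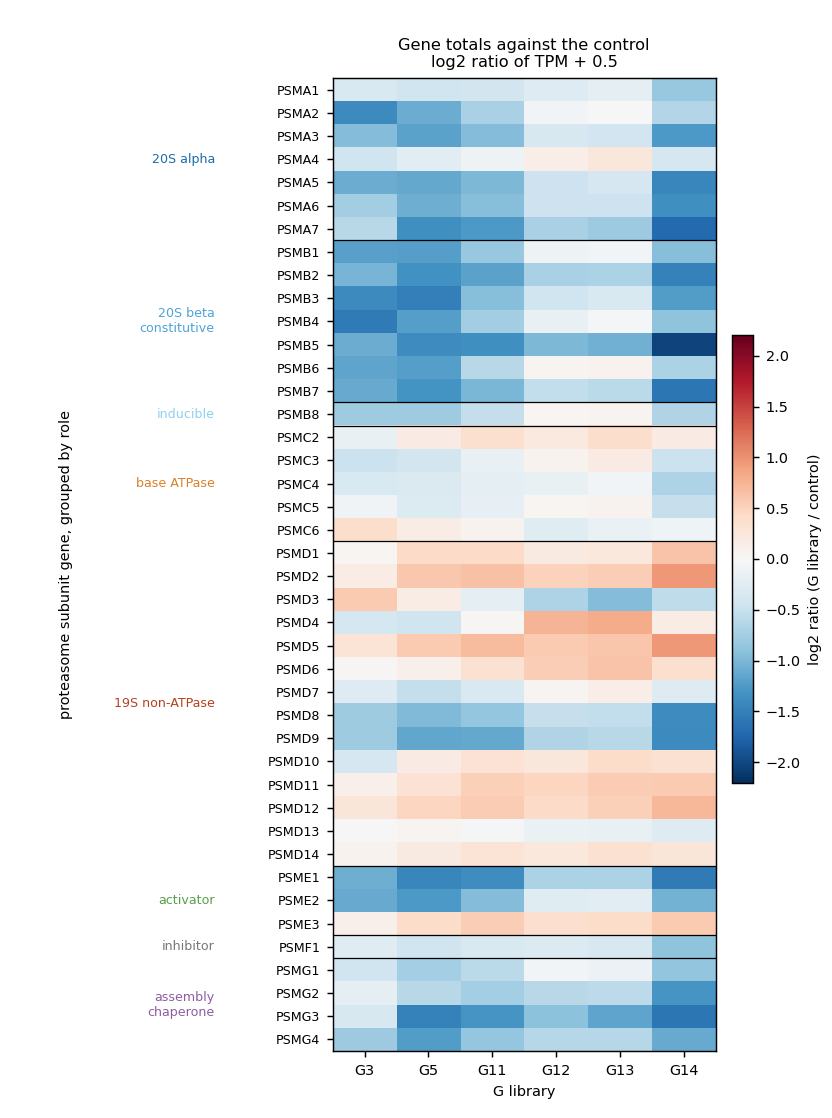
Log2 ratio of each of the 42 compared genes (rows, grouped by role) in the 6 G libraries (columns) to the control, on log2(TPM + 0.5); blue is lower and red is higher than the control. The 20S core rows are mostly blue, with a lowest value of -2.04 for PSMB5 in G14, and most 19S non-ATPase rows are red.

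Counted by a difference of at least 2-fold, 11 of the 42 members were lower than the control in G3, where 5.14% of all genes were. The count was 17 in G5 (all genes 10.1%), 7 in G11 (all genes 10.4%), 0 in G12 (all genes 8.79%), 2 in G13 (all genes 14.6%) and 15 in G14 (all genes 18.9%). As shares of the members these counts are 26.2%, 40.5%, 16.7%, 0%, 4.76% and 35.7%, so the members were above the background share in G3, G5, G11 and G14 and below it in G12 and G13. Scaled to library totals, no member was at least 2-fold higher in any G library, where 1.89%, 0.533%, 0.724%, 0.546%, 1.04% and 3.97% of all genes were. PSMB5 passed in 5 of the 6 libraries and reached 50.6% of the control in G12; PSMG3 passed in 4, namely G5, G11, G13 and G14. When each library was set against the median of the other 6 in place of the control, the counts of lower members became 2 in G3 (PSMA2 and PSMB4, all genes 0.508%) and 0 in each of the other 5, where 0.0889%, 0.241%, 2.21%, 8.18% and 3.64% of all genes were. No member was then at least 2-fold higher, against 9.76%, 3.59%, 0%, 0.0127%, 0.0508% and 0.254% of all genes from G3 to G14. Scaled by the median of ratios in place of library totals, PSMD2 and PSMD5 were at least 2-fold higher in G14 (all genes 6.15%) and 14 members lower (all genes 16.2%), while in G13 there were 0 higher (all genes 2.15%) and 1 lower (all genes 11.2%).

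With a threshold of 1.5-fold, 18, 21, 20, 9, 9 and 24 of the 42 members were lower than the control, where 12.3%, 17.2%, 22.5%, 22.6%, 29.1% and 31% of all genes were. Higher by as much were 0, 1, 2, 1, 3 and 4 members, where 8.71%, 3.71%, 6.53%, 5.08%, 6.86% and 15.5% of all genes were. The 4 in G14 were PSMD1, PSMD2, PSMD5 and PSMD12.

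The control was therefore examined as a library of its own. Its level was above all 6 G libraries for 21 of the 42 members, or 50%, against 20.5% of all genes, and below all 6 for 8 members, against 21.1% of all genes. The 21 included 11 of the 14 constitutive core genes, all 4 assembly chaperones, PSME1, PSME2, PSMF1, PSMC4, PSMD8 and PSMD9. The 8 below were PSMD1, PSMD2, PSMD5, PSMD6, PSMD11, PSMD12, PSMD14 and PSME3. G14 was the lowest library for 19 members (21.2% of all genes) and the highest for 6 (24.1% of all genes). G13 was the highest for 12 members, or 28.6%, against 6.31% of all genes, and the lowest for PSMD3 alone, against 30.8% of all genes. G3 was the highest for PSMC6 and PSMD3 (30.4% of all genes) and the lowest for 5 members (10.9%), among them PSMA4 and PSMB4. G5 was the highest for PSMD13 alone (12.9%) and the lowest for 8 (5.26%), among them PSMB1, PSMB3, PSMB6 and PSMB8. G11 was neither the highest nor the lowest library for any member (3.45% and 1.74% of all genes), and G12 was never the highest (2.4%) and the lowest for PSMC6 alone (9.04%).

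The summed level of the core and of the regulatory particle shows the same split. The 14 constitutive core genes reached a sum of 9416 TPM in the control, and of 5027, 4794, 5579, 7747, 7971 and 4654 TPM from G3 to G14. The 20 genes counted here as 19S (PSMC1 to PSMC6 and PSMD1 to PSMD14) had a control sum of 9812 TPM and sums of 9175, 9713, 10711, 11532, 12158 and 10550 TPM in the G libraries. They include the base assembly chaperones PSMD5, PSMD9 and PSMD10. ADRM1 and SEM1, counted below among the 26S-associated genes, are not in the sum. ADRM1 had 994 TPM in the control and between 487 and 866 in the G libraries, and SEM1 14.3 and between 5.38 and 14.8. The core sum was below the control in all 6 G libraries, from 49.4% of it in G14 to 84.7% in G13, whereas the 19S sum ran from 93.5% in G3 to 124% in G13. The ratio of the sums was 0.960 in the control and 0.548, 0.494, 0.521, 0.672, 0.656 and 0.441 in the G libraries.

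**Figure D2:**
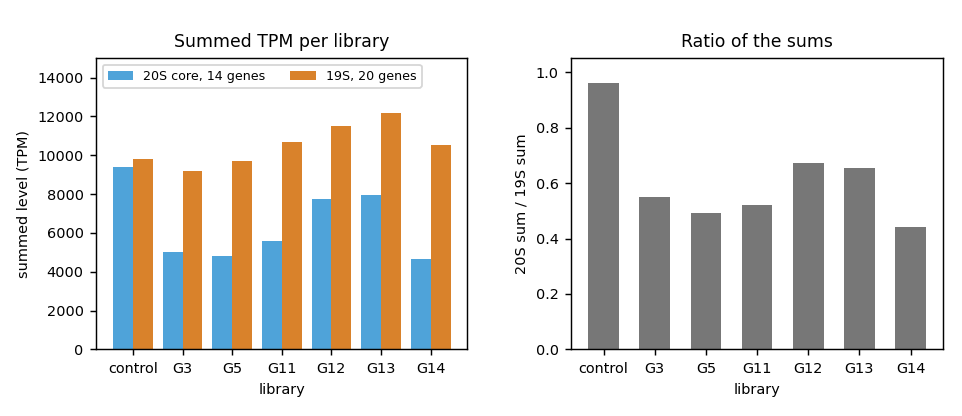
Left, summed level in TPM of the 14 constitutive 20S genes and of the 20 genes counted as 19S (PSMC1 to PSMC6 and PSMD1 to PSMD14) in each library. Right, the ratio of the 20S to the 19S sum. The ratio is 0.960 in the control and between 0.441 and 0.672 in the 6 G libraries.

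The catalytic beta subunits carry the peptidase sites of the core, and their genes were lower in most G libraries. PSMB5 (ENSG00000100804, minus strand, GRCh38 chr14:23016543-23035230) encodes the subunit with chymotrypsin-like activity, which is the main target of proteasome inhibitor drugs. Its level was 1289 TPM in the control, and the G libraries had 312 in G14, 493 in G5, 504 in G11, 603 in G3, 622 in G13 and 652 in G12. All 6 G libraries were below the control, and G14 was the lowest at 24.2% of it (95% interval 23.5 to 24.9). PSMB6, which encodes the caspase-like subunit, stood at 634 TPM in the control and at 274 in G5, 282 in G3, 392 in G14, 413 in G11, 661 in G12 and 672 in G13. Here G12 and G13 lay slightly above the control and the other 4 below it. PSMB7, the trypsin-like subunit, had 492 TPM in the control and 229, 199, 244, 340, 326 and 163 TPM in the G libraries, so that every G library was below the control and G14 again the lowest.

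The non-catalytic beta genes PSMB1 to PSMB4 had median log2 ratios over the 6 G libraries from -1.10 (PSMB2) to -0.82 (PSMB4). PSMB4 was lowest in G3, at 68.0 TPM against 201 in the control, and nearly level with the control in G13, at 196. All 7 constitutive beta genes were at least 2-fold lower in both G3 and G5. Among the alpha genes PSMA4, the most abundant, had 1420 TPM in the control against 1053 in G3, 1100 in G14, 1198 in G5, 1311 in G11, 1564 in G12 and 1695 in G13, so that its libraries lay on both sides of the control. The other alpha genes had medians from -1.05 (PSMA5) to -0.37 (PSMA1). PSMA7 was 645 TPM in the control and 197 in G14. PSMA2 had 1287 TPM in the control and 1300 in G13, and its lowest level was 490 TPM in G3.

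The inducible subunits, which interferon puts in place of PSMB5, PSMB6 and PSMB7 to form the immunoproteasome, were weakly expressed. PSMB8 had 27.1 TPM in the control and 15.6, 15.5, 18.7, 27.9, 28.2 and 17 TPM in the G libraries. Its G12 and G13 values lay just above the control, with intervals of 91.5% to 116% and 92.2% to 118% of it. PSMB9 had 34 reads in the control and between 11 and 43 in the G libraries, and PSMB10 had 26 and between 6 and 36. On so few reads PSMB9 was 30.5% of the control in G3 (13.9 to 61.6) and 79.6% in G12 (49.6 to 129). PSMA8, the testis form of an alpha subunit, had between 0 and 6 reads, at or near the 3 reads taken as the floor.

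The base ATPases unfold the substrate, and none of the 5 compared was 2-fold away from the control. PSMC5, the most abundant, stood at 864 TPM in the control and at 610 in G14, 705 in G5, 766 in G11, 823 in G3, 887 in G12 and 913 in G13. PSMC2 was between 530 and 781 TPM against 595 in the control, and PSMC6 was 239 TPM in G3 and 153 in G12 against 184. PSMC1 had 3.69 TPM in the control, and its G library values from 2.59 to 4.47 TPM were likewise far below the other ATPase genes, although the subunits stand in the ring in equal number. How reads were assigned to PSMC1 is not given in the sources used here.

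From the deposited levels, the 3 highest median ratios of the whole family were found among the non-ATPase genes. After the subtraction of a length and GC trend described below, PSME3 (0.87) and PSMD2 (0.80) had the highest medians. Those of PSMD5 and PSMD12 were then 0.45 and 0.28. PSMD5 (ENSG00000095261, minus strand, GRCh38 chr9:120815496-120842984), which encodes a chaperone of base assembly and not a subunit of the finished particle, had 94.3 TPM in the control, and the other libraries had 116 in G3, 141 in G5, 142 in G12, 144 in G13, 153 in G11 and 183 in G14. All 6 G libraries were above the control, up to 194% of it in G14 (183 to 206). PSMD2, the large scaffold subunit of the base, stood at 606 TPM in the control and 679, 918, 946, 856, 886 and 1173 TPM in the G libraries, likewise all above the control. PSMD12, a subunit of the lid, had 452 TPM in the control and 544, 628, 664, 607, 652 and 752 TPM. G3 was the nearest to the control and G14 the farthest from it for each of these 3 genes.

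PSMD4, the most abundant 19S gene and a ubiquitin receptor, behaved otherwise. Its level was 1128 TPM in the control and 836 in G5, 864 in G3, 1153 in G11, 1271 in G14, 1887 in G12 and 1983 in G13, so that G12 and G13 were the highest and G3 and G5 the lowest. PSMD3, a lid subunit, went the opposite way between the same libraries, with 386 TPM in G3 and 134 in G13 against 260 in the control. PSMD11, a lid subunit, was between 900 and 1234 TPM in the G libraries against 830 in the control, and PSMD14, the deubiquitinase of the lid, was between 911 and 1083 against 859. The exceptions below the control in all 6 libraries were PSMD8, with 581 TPM in the control and between 224 and 409, and PSMD9, with 131 and between 49.1 and 85.1. PSMD9 and PSMD10 encode chaperones of base assembly like PSMD5, and the 3 did not move together: their median log2 ratios were -0.95, 0.28 and 0.60.

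The activator genes split by the complex they form. PSME1 and PSME2, which encode the subunits of the interferon-inducible activator PA28, lie close together on chromosome 14. PSME1 had 106 TPM in the control and 50.4, 38.8, 40.9, 65.3, 65.4 and 36 TPM in the G libraries. PSME2 had 244 TPM in the control and 112, 101, 126, 203, 209 and 119 TPM. Both were below the control in all 6 G libraries. PSME3, which encodes the nuclear activator, stood at 717 TPM in the control and 777, 947, 1039, 932, 948 and 1067 TPM, above it in all 6. PSME4, the large activator PA200, had between 12 and 29 reads per library and was not compared. PSMF1, an inhibitor of the core in vitro, had 166 TPM in the control and 138, 122, 132, 135, 129 and 89.8 TPM.

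All 4 assembly chaperones were below the control in all 6 G libraries. PSMG3 had the lowest median of all members, -1.23, with 27.6 TPM in the control and 8.83 in G14, 9.55 in G5, 11 in G11, 12.1 in G13, 14.6 in G12 and 21.4 in G3. PSMG4, its partner in the complex that guides alpha ring assembly, had 10.7 TPM in the control and between 4.24 (G5) and 6.76 (G13). PSMG1, the most abundant, had 296 TPM in the control and 217, 176, 197, 284, 271 and 162 TPM in the G libraries, where G12 and G13 were nearest to the control.

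The genes that work with the proteasome did not share one direction. Among 10 compared genes of 26S-associated proteins, POMP, which matures the core, had 303 TPM in the control and 153, 148, 192, 267, 282 and 173 TPM, a median log2 ratio of -0.73 and the lowest of the list, and UCHL5, a deubiquitinase of the 19S particle, had the highest, 0.66. The list held 1 gene at least 2-fold lower in G3 (all genes 5.14%), 2 in G5 (all genes 10.1%) and 1 in G14 (all genes 18.9%). It held 0 in G11, G12 and G13 (all genes 10.4%, 8.79% and 14.6%). No gene of it was at least 2-fold higher, where between 0.533% and 3.97% of all genes were. Of 7 compared genes linked to proteasome gene transcription, NGLY1 had the highest median ratio, 0.52. NFE2L1, the factor that raises proteasome genes when the proteasome is blocked, had the lowest, -0.97, with 48.8 TPM in the control and 10.3 in G13, 19.5 in G14, 21.7 in G12, 28.2 in G11, 53.6 in G5 and 70.9 in G3. G3 and G5 were thus above the control for NFE2L1 and the other 4 below. It was the gene of this list at least 2-fold lower in G12, G13 and G14 (all genes 8.79%, 14.6% and 18.9%). Of 11 compared ubiquitin and shuttle genes, 1, 3, 2, 1, 1 and 5 were at least 2-fold lower from G3 to G14. The shares of all genes were 5.14%, 10.1%, 10.4%, 8.79%, 14.6% and 18.9%. RAD23B was at least 2-fold higher in G3 (all genes 1.89%). The medians of the 3 lists ran from -0.10 to 0.22 (26S-associated), from -0.08 to 0.40 (transcription) and from -0.32 to 0.12 (ubiquitin and shuttle), against -0.21 to 0.14 over all genes. Median ratios of single ubiquitin and shuttle genes ran from -1.36 for UBQLN4 to 0.56 for UBQLN1, both ubiquitin shuttle factors, and UBB, a polyubiquitin gene, had 2570 TPM in the control and between 1052 and 2309.

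Transcript length moved with these values. Of the 42 members, 25 fell in the shortest of 5 equal classes of the genes by annotated length (207 to 1615 nt), among them 11 of the 14 constitutive core genes. In that class the median log2 ratio over all 1548 genes was -0.54, -0.84, -0.72, -0.38, -0.42 and -1.01. The 25 members there had medians of -0.78, -1.09, -0.76, -0.26, -0.15 and -0.88, lower than all genes of that length in G3, G5 and G11 and higher in G12, G13 and G14. Across the 42 members Spearman's correlation of length with the ratio ranged from 0.28 in G13 to 0.62 in G5, and across 7736 genes from 0.08 in G13 to 0.47 in G5, given as a description of genes that share the same libraries. The median annotated length was 1012 nt for the constitutive core genes and 2066 nt for the non-ATPase 19S genes. The part of length in the difference between the core and the 19S particle was not tested apart from the subtraction that follows.

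**Figure D3:**
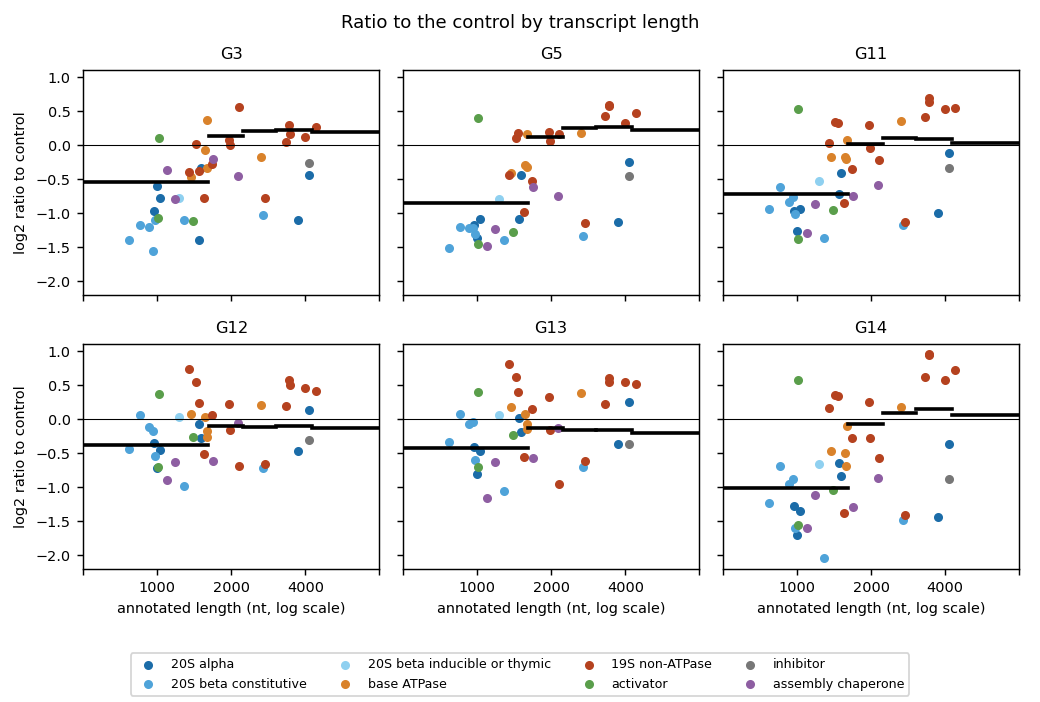
Log2 ratio to the control of each of the 42 members (points, coloured by role) against annotated transcript length in nt on a log axis, 1 panel per G library; black bars are medians over all genes in 5 length classes. Most core genes lie at the short end, where the bars are lowest (-1.01 in G14), while PSME3 lies above 0 at a length of 1013 nt.

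When a quadratic trend of length and GC content, fitted over 7736 genes, was subtracted from each library, the median of the core genes became -0.51, -0.55, -0.46, -0.13, -0.14 and -0.70. That of the non-ATPase 19S genes became -0.10, 0.17, 0.27, 0.24, 0.30 and 0.33. Of the variance of the ratios over these genes, the trend took up 38.9%, 46.5%, 35.1%, 30.01%, 41.6% and 39.0%. After subtraction 3 members were at least 2-fold lower in G3 (all genes 1.31%), namely PSMA2, PSMA5 and PSMB2. The number was 3 in G5 (all genes 2.42%), 4 in G11 (all genes 3.09%), 0 in G12 (all genes 2.47%), 0 in G13 (all genes 4.87%) and 6 in G14 (all genes 6.94%). PSMA5 and PSMB2 were in this set in G3, G5, G11 and G14, and PSMB5 in G11 and G14. PSMA5 in G11 and PSMF1 in G14 had not passed before the subtraction. Members at least 2-fold higher were PSME3 in G5 (all genes 0.801%), G11 (all genes 1.19%) and G14 (all genes 4.85%), and PSMD2 in G13 (all genes 3.81%) and G14; G3 and G12 had none (all genes 1.4% and 1.54%). The median of PSMB6 changed sign, from -0.66 to 0.25, as did that of PSMC5, from -0.12 to 0.077, and that of the base ATPases, from -0.17 to 0.063. The medians of PSMC3, PSMC4, PSMC6, PSMD3 and PSMD13 also went from below to above 0. Some genes below the control in all 6 G libraries rose above it in single libraries. PSME2 did so in G12 (0.077) and G13 (0.18), and PSMG3 in G3 (0.16).

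PSMA5 and PSMB2 are, with PSMA4 (4130 nt), the core genes with long annotated transcripts, of 3729 and 2701 nt. PSMA5 had 331 TPM in the control and 154, 151, 165, 240, 256 and 121 TPM in the G libraries, and PSMB2 had 262 TPM in the control and 128, 104, 116, 160, 161 and 93.2 TPM. All genes in the length class of PSMA5 (3032 to 4249 nt) had medians between -0.15 and 0.27, and those in the class of PSMB2 and PSMD9 (2239 to 3031 nt) between -0.15 and 0.26. These 3 genes were low among genes of their own annotated length, as PSME3 was high, and the lengths of the reads themselves were not examined.

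**Figure D4:**
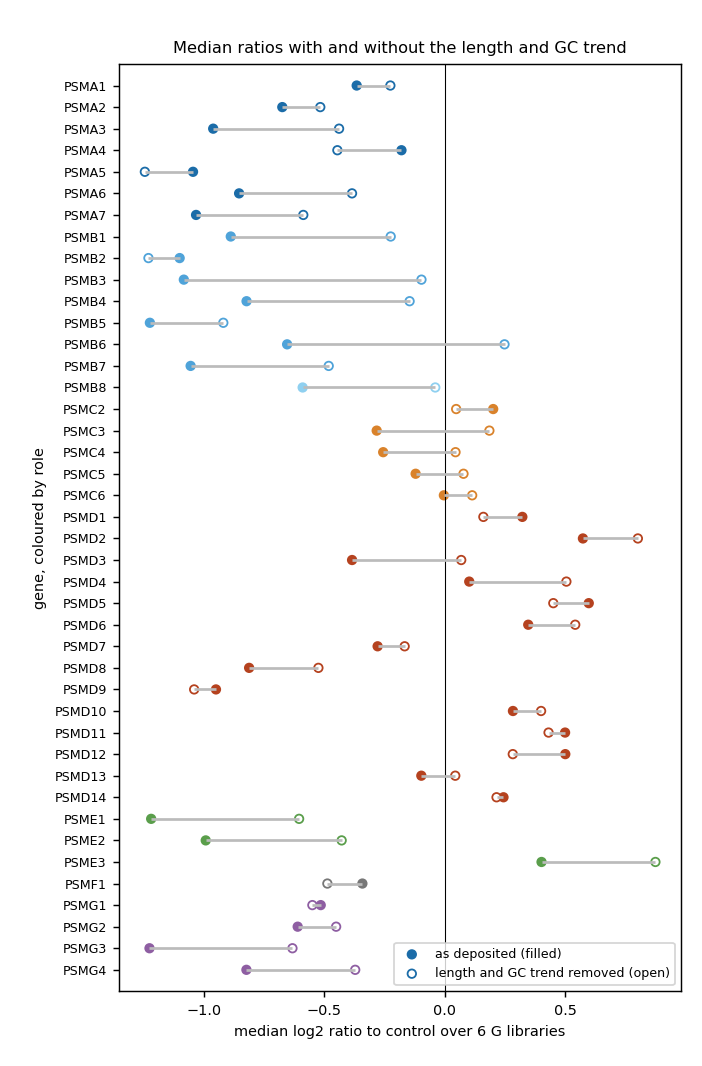
Median log2 ratio to the control over the 6 G libraries for each of the 42 members, from the deposited levels (filled) and after subtraction of the length and GC trend (open), coloured by role. PSMA5 goes from -1.05 to -1.25 and PSMB2 from -1.10 to -1.23, PSMB6 crosses 0 to 0.25 and PSME3 moves from 0.40 to 0.87.

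Promoter sequence was read because many members lay on the same side of the control. RefSeq windows of 250 bases before the start (GRCh38.p14) were found for 41 members, 50 windows in all, with more than 1 for some genes; PSMA7, PSMB1, PSMB6, PSMB7, PSMD4 and PSMG3 had none in the table used. The antioxidant response element is read by NFE2L1 and NFE2L2. It was searched for by a loose form of its core, TGANNNNGC on either strand, in which any base may stand between TGA and GC. Matches to this loose form are therefore not counts of the element itself. The loose form was present in 28 of the 50 windows, or 56.0%, against 35.2% of 35116 windows of all genes. CCAAT, the box bound by NF-Y, was present in 36% against 32%, and GCATG, the RNA motif of RBFOX proteins read here as DNA, in 22% against 25.1%. Counted by gene, the loose form of the antioxidant response core was in any window of 7 of 10 constitutive core genes (70%) and 9 of 19 19S genes (47.4%). CCAAT was in 6 (60%) and 9 (47.4%), and GCATG in 6 (60%) and 3 (15.8%). Some genes had more than 1 window, and windows of a gene can overlap, as those of PSMA6 do, which hold the same match. The shares by window are thus not shares of separate promoters, and no share by gene over all genes was computed. A match to such short motifs is a description of letters and shows no binding. The windows of 4 genes are printed 5′ to 3′, as far as they lie upstream of every annotated exon, with matches to the loose form in capitals. They are PSMA5, which was low among genes of its annotated length, and PSMB5, the core gene with the lowest median ratio. PSMD5 and PSMD12, among the 3 genes with the highest median ratios, are the others. Both rankings are by the deposited levels, before the length and GC trend was subtracted.
PSMA5 (chr1:109426449-109426698, minus strand): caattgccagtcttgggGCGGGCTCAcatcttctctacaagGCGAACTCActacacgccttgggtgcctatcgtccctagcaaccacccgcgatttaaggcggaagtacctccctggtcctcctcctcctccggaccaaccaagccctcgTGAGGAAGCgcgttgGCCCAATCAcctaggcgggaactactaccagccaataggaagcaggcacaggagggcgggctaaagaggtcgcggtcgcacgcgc
PSMB5 (chr14:23035231-23035470, minus strand): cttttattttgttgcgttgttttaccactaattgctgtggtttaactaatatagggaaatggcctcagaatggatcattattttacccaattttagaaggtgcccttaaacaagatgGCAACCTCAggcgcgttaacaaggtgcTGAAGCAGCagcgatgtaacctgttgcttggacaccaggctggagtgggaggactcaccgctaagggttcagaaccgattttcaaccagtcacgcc
PSMD5 (chr9:120842985-120843172, minus strand): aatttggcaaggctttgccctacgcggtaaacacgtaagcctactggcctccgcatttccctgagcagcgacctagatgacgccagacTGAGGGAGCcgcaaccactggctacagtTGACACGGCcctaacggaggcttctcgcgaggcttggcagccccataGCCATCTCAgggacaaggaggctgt
PSMD12 (chr17:67366628-67366827, minus strand): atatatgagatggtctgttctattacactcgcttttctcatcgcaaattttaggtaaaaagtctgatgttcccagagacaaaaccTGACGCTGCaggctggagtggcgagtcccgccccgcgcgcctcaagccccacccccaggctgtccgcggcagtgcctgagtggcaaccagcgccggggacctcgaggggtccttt
The PSMA5 window held 4 matches, that of PSMB5 2, that of PSMD5 3 and that of PSMD12 1. The windows of PSMD2, the remaining gene of the 3 with the highest median ratios, held 0. The printed windows are examples, and the part of the motif in the ratios was not tested.

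Isoform usage of the members differed little between libraries. It was measured by the total variation distance to the control, a value of 0 meaning identical shares and 1 meaning no isoform in common. The median over the 42 members was 0.015, 0.016, 0.015, 0.014, 0.016 and 0.018 in the G libraries, while over all genes it was between 0.062 and 0.076. Counting error adds to the distance, more so on fewer reads. Of the 42 members 40 averaged at least 20 TPM, while all genes from 5 TPM up were included. The members and all genes were not matched for read number, and its part in this difference was not tested. The leading isoform held a median of 94.2% of a member's reads and at least 90% in 31 of 42 members; it carried a reference transcript ID in 41, PSMD1 being the exception. A distance of at least 0.2 was reached by PSMG3 in G3 (all genes 9.57%), by PSMB8 in G11 (all genes 10.8%), G13 (all genes 14.8%) and G14 (all genes 14.6%), and by no member in G5 (all genes 9.25%) or G12 (all genes 11.1%). At a distance of 0.1 the counts were 3, 2, 3, 3, 3 and 4 members (all genes 32.2%, 31.6%, 34.2%, 34.6%, 38.5% and 39.9%). The 4 largest median distances were those of PSMB8 (0.210), PSMG3 (0.160), PSMG4 (0.143) and PSMC5 (0.074). The first 3 are also the least abundant members compared, with mean levels between 6.38 and 21.4 TPM, and the part of read number in their distances was not tested.

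PSMB8 (ENSG00000204264, minus strand, GRCh38 chr6:32840717-32844703) had the largest median usage distance. Its 2 main isoforms differ in the exon that holds the start codon and share all coding sequence after it. ENST00000374882 encodes 276 residues and begins with 147 coding bases at chr6:32843850-32843996. ENST00000374881 encodes 272 residues and begins with 135 coding bases at chr6:32844279-32844413, farther upstream. These exons encode part of the propeptide, which is cut off when the core matures. They are printed from the GENCODE 29 transcripts with the start codon in capitals.
ENST00000374882: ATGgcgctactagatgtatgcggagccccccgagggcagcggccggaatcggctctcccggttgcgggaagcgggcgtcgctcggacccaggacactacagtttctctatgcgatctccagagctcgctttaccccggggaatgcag
ENST00000374881: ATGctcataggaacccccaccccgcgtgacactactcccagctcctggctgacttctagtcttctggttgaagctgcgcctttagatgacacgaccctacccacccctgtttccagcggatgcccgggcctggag
The share of ENST00000374882 was 67.3% of PSMB8 reads in the control (Wilson interval 62.8 to 71.4) and lay between 40.9% in G11 (36.1 to 45.8) and 56.1% in G3 (50.2 to 61.8), with 43.4% in G13, 44.7% in G14, 52.0% in G12 and 53.3% in G5. That of ENST00000374881 was 27.3% in the control (23.4 to 31.5) and 39.2%, 42.4%, 55.8%, 43.3%, 49.3% and 48.0% in the G libraries, with an interval of 50.8 to 60.6 in G11. All 6 G libraries lay on the same side of the control for both isoforms. The upstream exon was the more used of the pair in G11, where the intervals of the 2 shares lay apart. In G13 (49.3% against 43.4%) and G14 (48.0% against 44.7%) its share was only slightly the larger, and the intervals of the 2 shares overlap. Between 278 and 744 PSMB8 reads per library stand behind these shares.

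PSMC5 (ENSG00000087191, plus strand, GRCh38 chr17:63827152-63832026) had a smaller distance on far more reads, between 12783 and 23671 per library. The leading isoform, ENST00000310144, encodes 406 residues, the first 8 of them in exon 1. ENST00000375812 starts at another exon without a start codon, so its reading frame begins in exon 2 and gives 398 residues. The 15 bases on each side of the junction are printed with exon 2 in capitals.
ENST00000310144: gacggaccagagcagATGGAGCTGGAGGAG
ENST00000375812: taaaagtcgtatgagATGGAGCTGGAGGAG
The share of ENST00000375812 was 10.9% in the control (10.4 to 11.4), 10.1% in G3 (9.67 to 10.6), and was higher in the others, at 15.2% in G5, 16.9% in G12, 17.9% in G11 and 18.7% in G13, and 22.3% in G14 (21.6 to 23.0). G3 lay just below the control and the other 5 above it. The leading isoform went from 85.0% in the control to 73.4% in G14.

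PSMG3 and PSMG4 rest on few reads, between 185 and 464 for PSMG3 and between 98 and 180 for PSMG4. The 2 main isoforms of PSMG3 encode the same 122 residues and differ in their exons before the start codon. ENST00000288607 held 36.4% of PSMG3 reads in the control (32.2 to 40.9), 60.5% in G3 (55.5 to 65.2), and 40.7%, 43.2%, 50.8%, 50.2% and 52.4% in the remaining 5, so every G library was above the control and the intervals of G5 and G11 overlapped that of the control. In PSMG4 the leading isoform ENST00000438998 encodes 123 residues, and ENST00000419065 adds a cassette exon of 117 bases (chr6:3264209-3264325) and encodes 162. The exon is printed because its inclusion sets the pair apart.
PSMG4 cassette exon: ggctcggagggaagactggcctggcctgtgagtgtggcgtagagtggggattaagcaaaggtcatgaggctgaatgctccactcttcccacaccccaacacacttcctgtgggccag
ENST00000419065 held 26.3% of PSMG4 reads in the control (20.4 to 33.2) and between 15.7% in G5 (10.1 to 23.8) and 23.4% in G13 (17.4 to 30.7), and these intervals all overlap. Another isoform, ENST00000473000, in which exon 2 runs on to the end of the gene and which encodes 104 residues, held 7.82% in the control (4.72 to 12.7) and 21.7% in G3 (14.9 to 30.5), the only G library whose interval lay apart from the control.

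**Figure D5:**
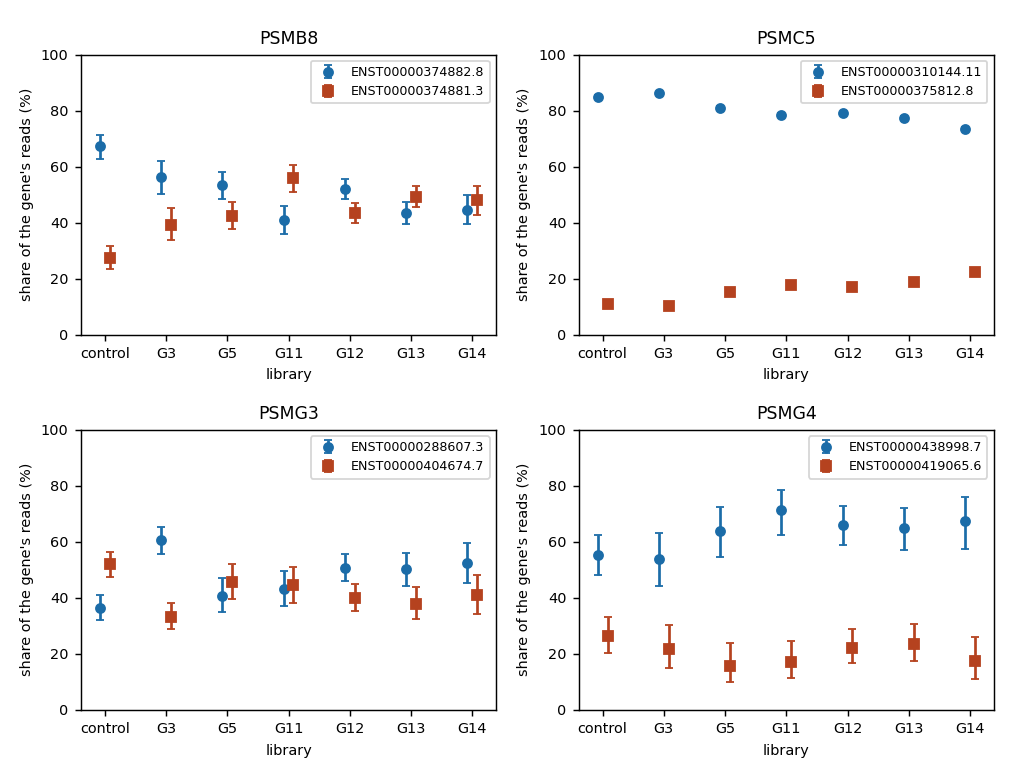
Share of the gene's reads (percent) of the 2 most used isoforms of PSMB8, PSMC5, PSMG3 and PSMG4 in each library; bars are Wilson 95% intervals for counting error. The PSMB8 isoforms go from 67.3% and 27.3% in the control to 40.9% and 55.8% in G11.

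In the inhibitor PSMF1 the minor isoform differs at the other end of the transcript. Its leading isoform ENST00000335877 (271 residues) held between 86.6% and 91.0% of the reads. ENST00000246015, which ends in another last exon and encodes 263 residues, held 3.66% in the control (3.02 to 4.43) and 5.64%, 6.87%, 7.35%, 5.62%, 5.29% and 9.78% in the G libraries, with an interval of 8.52 to 11.2 in G14, above the control in all 6. In PSMD4, the forms of 377 and 380 residues kept similar shares, that of the longer being between 6.13% and 7.14% in the 7 libraries.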

How the data were processed

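Polyadenylated RNA of 7 cultures was sequenced as 8-fold MAS-Seq arrays on the Revio system, and the authors split the arrays into reads in software, per the labels' protocols. The submitters' processing notes name minimap2 2.17 and GRCh38 (hg38). The isoform assignment tool, its filters and the annotation are not given in the sources used here. The deposited table holds, per the file headers, full-length read counts per isoform and library, with no normalization. The deposited TPM values equalled the count divided by 1 constant per library (100% of values within 0.01), so they carry no length term. Each listed isoform had at least 1 control read; the listed isoforms held 100% of the control reads and between 98.1% and 98.6% of those of a G library, so isoforms without a control read are not analysed here.

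Counts were summed by Ensembl gene ID stem, which joined 4 rows of fused IDs to PSMA6, PSMC3, PSMC6 and PSMD8; empty cells were read as 0. PSMC3IP and PSME3IP1 are no members. Levels were compared as log2(TPM + 0.5), which understates ratios of weakly expressed genes, among genes averaging 5 TPM or more, and called at 2-fold. The floor of 3 reads was worth between 0.112 and 0.179 TPM. Ratios have exact Clopper-Pearson and shares Wilson 95% intervals, which cover counting error only, as reads carry no molecular identifiers. Length and GC content came from GENCODE 29, weighted by isoform level; these are annotated and not read lengths. Promoter windows came from RefSeq, and coordinates are GRCh38. Named genes were the catalytic beta genes, the 3 largest median rises and falls, the most abundant gene of each role, the 4 largest usage distances, and the extremes of each related list. PSMA2, PSMA5, PSMA7, PSMB2, PSMB4, PSMC2, PSMC6, PSMD3, PSMD8, PSMD9, PSMD10, PSMD11, PSMD14, PSME2, NFE2L1, NFE2L2 and UBB were partly added after their values were seen. The members and lists were chosen with earlier results of these data known. Alternatives were other pseudocounts, filters, scalings, isoform sets, thresholds and references. Scripts, checked on simulated data, used Python 3.11.15, pandas 2.3.3, NumPy 2.4.6, SciPy 1.17.1 and matplotlib 3.10.9.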

Additional observations from a re-analysis of the deposited data

How the results depend on the processing

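No paired analysis was possible because every group holds a single library, all numbered replicate 1. With pseudocounts of 0.1 and 1 TPM every median stayed within the median counting interval of its genes, and the counts at least 2-fold away stayed the same. With each library set against the median of the other 6, the median log2 ratio of the 42 members became -0.25, -0.31, -0.14, 0.31, 0.24 and -0.42 from G3 to G14 (reversed in G12 and G13), and -0.20 over the G libraries; the counts at least 2-fold away became 2 in G3 and 0 in G5, G11, G13 and G14. The medians of the 20S core, the base ATPases and the non-ATPase 19S genes were then -0.30, -0.046 and 0.046, against -1.01, -0.17 and 0.27. Removal of the trend of length and GC content made the member medians -0.21, -0.36, -0.23, 0.045, 0.11 and -0.19 (reversed in G12 and G13), and -0.20 over the G libraries. The counts, either way, became 3 in G3, 4 in G5, 5 in G11, 1 in G13 and 8 in G14. The core median became -0.48, and those of the base ATPases (0.063), PSMB6 (0.25) and PSMC5 (0.077) reversed. The numbers of members outside the range of the other libraries became 19 for the control, 18 for G3, 4 for G5, 1 for G11 and 5 for G12, against 29, 7, 9, 0 and 1. The share of all genes outside the range was not computed here or for the other scaling and margin below. These numbers therefore cannot be set against a background. Scaling by the median of ratios shifted all log2 ratios by between -0.04 (G5) and 0.16 (G13); the member medians became -0.022 in G12, 0.062 in G13 (reversed) and -0.57 in G14, the non-ATPase 19S median 0.36, the G13 count 1, the G14 count 16 with 2 of them higher, and the numbers outside the range 14 for G5 and 2 for G12. Among genes averaging 20 TPM or more the G5 median was -0.48, the G13 count 1 and the G3 count of usage distances 0; with no filter the base ATPase median was -0.081. At 1.5-fold, either way, 28 members passed in G14, 22 in G11, 18 in G3, 12 in G13 and 10 in G12. With a margin of 1.5-fold the numbers outside the range were 18 for the control, 4 for G3, 4 for G5, 0 for G12, 5 for G13 and 10 for G14. At a usage distance of 0.1 the counts were 3, 2, 3, 3, 3 and 4 from G3 to G14, where between 31.6% and 39.9% of all genes passed. The median usage distance was 0.0073, 0.0066, 0.0073, 0.0062, 0.0065 and 0.0093 with isoforms of at least 1 TPM and 0.0024, 0.0028, 0.0025, 0.0021, 0.0019 and 0.0029 with reference IDs only. Leaving out each G library in turn, the core median ranged from -1.09 to -0.94. The cause of these changes was not tested. PSMB9, PSMB10, PSMA8 and PSME4 rest on few reads. The counting intervals of their ratios left out 100% of the control for PSMB9 in G3, G5 and G14, PSMB10 in G3, G5, G11 and G14, and PSME4 in G3, and held it in the other libraries and for PSMA8.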

Other observations

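PSMC3IP, a meiotic recombination factor whose symbol resembles a proteasome gene but which is no member, had 82.0 TPM in the control and 10.1, 20.8, 45.2, 68.1, 95.5 and 14.3 TPM from G3 to G14. G3 and G14 were the lowest and only G13 was above the control. The gene was singled out after its values were seen.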
